A study of Mus musculus with 95 samples.

Results

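Kidneys of untreated SNF1 mice were compared between week 2 and week 0 of a longitudinal lupus nephritis experiment. The arrays were chosen by their labels alone, as untreated mice of these weeks, and make up 17 of the 95 arrays of the series, with 7 mice at week 0 and 10 mice at week 2. SNF1 mice are the F1 offspring of SWR and NZB parents and develop lupus-like kidney disease without any treatment. Per the methods, the animals were females bred in house, and untreated mice were matched in age to mice that received pristane, a mineral oil that speeds up the disease, at 9 weeks of age. None of the 17 mice had received pristane, and the 2 weeks were sampled in different animals. Each array measured total RNA of whole kidney, labelled after NuGEN Ovation amplification. The methods describe more than 1 longitudinal experiment, and the labels do not say which mouse came from which. The hour of tissue collection and the array batch are not given in the sources used here, and neither can be told apart from the week.

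The kidney holds a circadian clock. CLOCK or NPAS2 pairs with BMAL1, the product of Arntl, and this pair switches on the Per and Cry genes, whose products inhibit it. The nuclear receptors REV-ERB, which represses, and ROR, which activates, act on Arntl, while DBP, TEF and HLF carry the rhythm to output genes. In tissues of mice, Arntl and Npas2 peak at about the opposite time of day to Dbp, Per2 and Per3. Immediate early genes such as Fos and Egr1 are switched on within minutes by growth factors, injury or stress, and glucocorticoid-responsive genes follow the daily and stress-driven hormone of the adrenal cortex.

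Values are deposited log2 levels from robust multi-array averaging (RMA), so a difference of 1 is a 2-fold change. A gene is called when its limma test across all 45037 probe sets has a Benjamini-Hochberg adjusted p under 0.05. All adjusted p-values below are from that fit. Because RNA of whole kidney was measured, fewer cells of a type and less RNA per cell cannot be told apart. The markers of kidney were at high levels at week 0, with Kap at 14.2, Umod at 13.3, Slc12a1 at 12.2, Cubn at 12.1 and Slc22a6 at 10.7, and the podocyte gene Nphs1 was at 6.10.

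The groups were separated along the first principal component, which carried 50% of the variance of the 5000 most variable probe sets. Week 0 mice lay between -40.2 and -19 and week 2 mice between 1.78 and 35.4. The 10 mice at week 2 were themselves spread out, with mice 1 to 5 at 22.7 to 35.4 and mice 6 to 10 at 1.78 to 17.4. Some control probe sets also differed between the weeks. The bacterial hybridization controls bioB, bioC and bioD averaged 11.8 at week 0 (range 11.5 to 12) and 11.3 at week 2 (range 11 to 11.7). The phage cre controls averaged 15 at both weeks. Probe sets for 18S rRNA averaged 7.95 at week 0 (range 7.59 to 8.31) and 8.74 at week 2 (range 8.45 to 9.03), and those for B1 and B2 repeats 11.6 (range 11.4 to 11.7) and 10.9 (range 10.6 to 11.2), with no overlap between the weeks in either. Beta-actin was higher at week 2 in its 3′ probe set (12 and 12.4), its middle probe set (10.1 and 10.8) and its 5′ probe set (9.27 and 9.87), each without overlap. The difference between 3′ and 5′ probe sets, a sign of RNA integrity, was 2.69 (SD 0.206) and 2.5 (SD 0.104) for beta-actin and 1.36 (SD 0.0783) and 1.22 (SD 0.0734) for Gapdh, with overlap in both. Within week 2, the repeats were at 10.6 to 10.8 in mice 1 to 5 and at 10.9 to 11.2 in mice 6 to 10. The part of these differences in the results below was not tested.

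Of 17097 genes, 4644 passed the test, which is 27.2% of them. At week 2, 3251 genes (19%) were higher and 1393 (8.15%) were lower. The majority of these changes were small, with a median size of 0.40 on the log2 scale. More than 2-fold higher were 78 genes (0.456%), and more than 2-fold lower were 51 genes (0.298%). Among all called probe sets, 221 were over 2-fold higher and 210 over 2-fold lower. Of these, 144 and 65 had 1 gene symbol, so more of the large falls than of the large rises are not assigned to a gene here. The higher genes over 2-fold had a median level of 5.93 at week 0 and 7.2 at week 2, and the lower genes over 2-fold 5.14 and 3.84. In 745 genes (4.36%) the values of the 2 weeks did not overlap. The share of calls that were higher was 70% and depended on scaling: it was 82.2% after median centring of each array and 48.2% after quantile normalization of the 17 arrays. For this reason the counts of higher and lower members of the gene lists are followed below by those after quantile normalization.

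**Figure D1:**
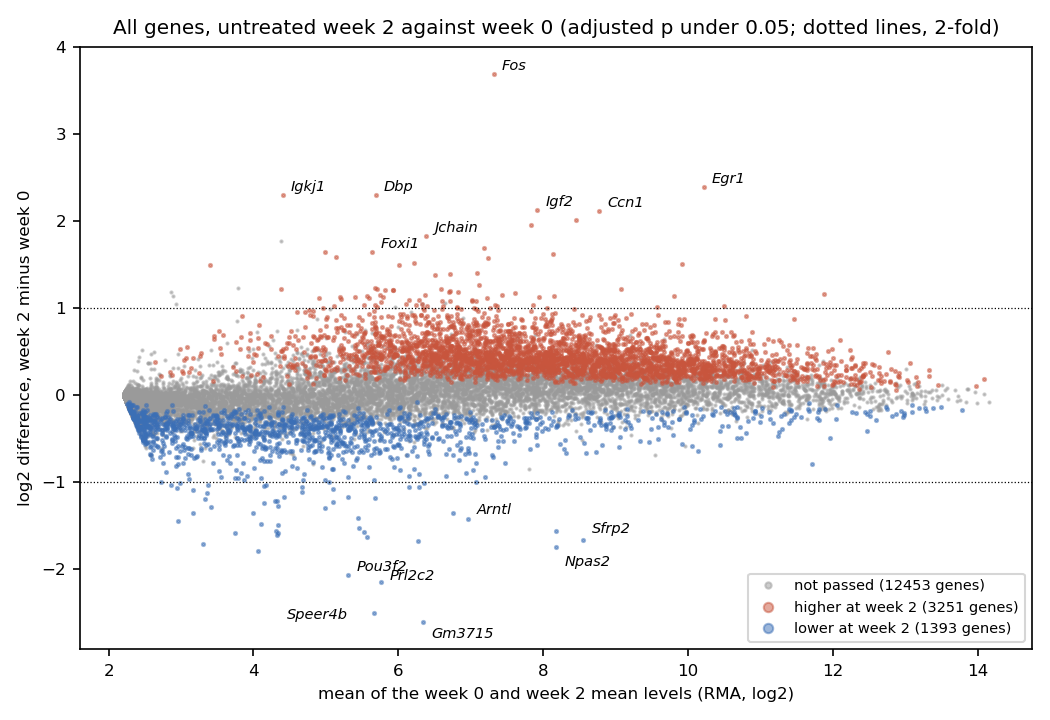
Log2 difference between week 2 and week 0 (vertical axis) against the mean RMA level of both weeks (horizontal axis, log2), 1 point per gene. Red points are the 3251 higher genes, blue points the 1393 lower genes and grey points the 12453 genes that did not pass. Fos stands alone at the top with a log2 difference of 3.69, and Gm3715 is the lowest at -2.60.

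Genes of the circadian clock changed together in both directions. The list of core clock and clock output genes had 28 entries, 24 of which could be matched to a probe set. Of these, 16 rose (66.7%) and 5 fell (20.8%), against 19% and 8.15% of all genes, and the median difference was 0.49 against 0.003 over all genes. The activators Arntl and Npas2 fell, while Dbp, Per3, Per2 and Nr1d2 rose more than 2-fold. After quantile normalization 13 rose and 5 fell. Without week 0 mouse 2, mouse 5 or mouse 6 the number of lower members was 3. The mean level of the list was 7.23 at week 0 (range over mice 7.15 to 7.33) and 7.64 at week 2 (range 7.51 to 7.74), with no overlap.

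The promoters of 7 clock genes are shown, among them the output gene Dbp and the fallen Arntl and Nfil3. They are a selection and do not represent the whole list. Each runs from 250 bases before to 50 bases after the transcription start (RefSeq, GRCm38.p6), and capitals mark matches on either strand to 3 of the motifs that the clock factors bind. These are the E-box CACGTG, bound by CLOCK and BMAL1, the D-box TTANGTAA, bound by DBP, TEF and HLF, and the ROR element TAGGTCA or TGGGTCA, bound by ROR and REV-ERB.
Dbp, chr7:45704997-45705296, + strand: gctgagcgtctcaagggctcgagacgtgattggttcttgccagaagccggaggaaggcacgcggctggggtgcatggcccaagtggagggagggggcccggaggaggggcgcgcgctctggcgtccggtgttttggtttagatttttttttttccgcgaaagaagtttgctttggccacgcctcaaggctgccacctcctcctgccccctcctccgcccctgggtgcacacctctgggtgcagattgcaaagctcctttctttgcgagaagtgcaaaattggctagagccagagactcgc
Per3, chr4:151044616-151044915, - strand: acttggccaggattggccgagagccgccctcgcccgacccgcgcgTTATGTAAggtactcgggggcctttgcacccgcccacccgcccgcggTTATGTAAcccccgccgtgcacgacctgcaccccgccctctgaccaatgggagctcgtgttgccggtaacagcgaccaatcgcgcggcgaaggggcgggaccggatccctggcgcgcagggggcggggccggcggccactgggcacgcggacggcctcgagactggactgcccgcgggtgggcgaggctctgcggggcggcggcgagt
Tef, chr15:81811164-81811463, + strand: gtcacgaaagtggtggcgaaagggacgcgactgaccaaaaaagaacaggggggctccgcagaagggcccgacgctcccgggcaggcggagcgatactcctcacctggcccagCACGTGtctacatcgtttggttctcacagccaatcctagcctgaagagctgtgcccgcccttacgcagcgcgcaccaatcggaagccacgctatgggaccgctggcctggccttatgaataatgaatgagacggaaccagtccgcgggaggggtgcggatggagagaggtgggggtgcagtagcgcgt
Ciart, chr3:95882179-95882478, - strand: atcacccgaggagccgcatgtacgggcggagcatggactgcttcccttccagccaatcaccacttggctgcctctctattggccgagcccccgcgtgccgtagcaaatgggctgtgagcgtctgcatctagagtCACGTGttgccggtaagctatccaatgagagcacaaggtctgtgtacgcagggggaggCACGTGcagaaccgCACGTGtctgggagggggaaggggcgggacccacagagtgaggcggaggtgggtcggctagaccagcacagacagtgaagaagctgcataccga
Arntl, chr7:113207261-113207560, + strand: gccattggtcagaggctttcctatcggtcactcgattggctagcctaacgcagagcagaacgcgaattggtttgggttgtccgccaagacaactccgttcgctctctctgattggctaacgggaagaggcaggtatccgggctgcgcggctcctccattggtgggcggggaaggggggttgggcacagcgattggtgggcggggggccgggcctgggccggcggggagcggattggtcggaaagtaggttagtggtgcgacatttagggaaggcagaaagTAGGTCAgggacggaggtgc
Nfil3, chr13:52980990-52981289, - strand: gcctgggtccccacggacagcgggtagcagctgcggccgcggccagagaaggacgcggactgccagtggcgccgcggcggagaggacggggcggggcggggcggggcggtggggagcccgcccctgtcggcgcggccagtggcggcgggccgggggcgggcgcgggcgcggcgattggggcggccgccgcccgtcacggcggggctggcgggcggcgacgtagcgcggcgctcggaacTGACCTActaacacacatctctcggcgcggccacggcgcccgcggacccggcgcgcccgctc
Leo1, chr9:75441274-75441573, + strand: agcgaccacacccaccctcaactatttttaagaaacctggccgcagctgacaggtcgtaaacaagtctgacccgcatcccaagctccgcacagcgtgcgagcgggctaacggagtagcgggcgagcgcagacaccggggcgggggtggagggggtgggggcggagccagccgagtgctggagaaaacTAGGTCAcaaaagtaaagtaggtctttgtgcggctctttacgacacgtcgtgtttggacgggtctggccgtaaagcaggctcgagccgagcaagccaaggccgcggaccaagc

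No motif lay in the Dbp window. Per3 held 2 D-boxes, beginning 205 and 158 bases before the start, Tef an E-box 138 bases before the start and Ciart 3 E-boxes at 116, 58 and 44 bases before it. The ROR element lay 30 bases after the start of this Arntl promoter (a second, overlapping one held no match), 12 bases before the start in Nfil3 and 63 bases before it in Leo1. Promoters were matched for 21 of the 24 measured clock genes. The ROR element was in 3 of the 5 genes that fell, in 0 of the 13 matched genes that rose and in 0 of the 3 that did not pass, against 7.35% of all 27025 genes with a promoter. An E-box was in 3 of 13, 1 of 5 and 2 of 3 of these genes, against 8.09% of all genes, and a D-box in Per3 alone, against 2.72%. The cyclic AMP response element TGACGTCA was also searched and was in 1 of the 21 genes, against 2.03% of all. The fallen genes shown are the 3 with a ROR element. Of the fallen genes not shown, Npas2 held no motif and Cry1 held an E-box. Clock, Cry2, Nr1d2, Rora and Usp2, which rose, held no motif and are not shown either. The motifs were chosen after the values had been seen, and these counts are a description of the letters in a short window.

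Arntl, which encodes the partner of CLOCK, ranged from 7.37 over a median of 7.65 to 7.94 at week 0 and from 5.96 over 6.18 to 6.67 at week 2. Every week 2 kidney lay below every week 0 kidney. The log2 difference was -1.42 (SE 0.11), a 2.67-fold fall (adjusted p = 2.72e-06). A second Arntl probe set was not called. Npas2, a paralogue of Clock, ranged from 8.33 over 9.13 to 9.45 at week 0 and from 6.96 over 7.29 to 7.93 at week 2. The groups did not overlap, and the fall was 3.36-fold (log2 difference -1.75, SE 0.17, adjusted p = 1.78e-05). Clock itself was 1.30-fold higher (log2 difference 0.38, SE 0.07, adjusted p = 0.00182) in 1 of its 4 probe sets. The others differed by -0.0878, 0.151 and 0.0187 and were not called.

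Among the inhibitors of the clock, Per3 ranged from 5.67 over 6.98 to 7.63 at week 0 and from 8.29 over 8.82 to 9.48 at week 2. All 10 week 2 values were above all week 0 values, a 3.88-fold rise (log2 difference 1.96, SE 0.22, adjusted p = 4.95e-05), and 2 of the 5 Per3 probe sets were called. Per2 rose 2.81-fold, from 4.69 over 5.22 to 5.87 at week 0 to 6.26 over 6.79 to 7.46 at week 2 (log2 difference 1.49, adjusted p = 0.000208), again with no overlap. Per1 and Cry2 rose by smaller amounts, 1.41-fold (adjusted p = 0.00349) and 1.40-fold (adjusted p = 0.0092). For Per1, 5 of the 7 week 0 mice had the same lowest value of 4.31. Cry1 fell 1.35-fold (log2 difference -0.44, adjusted p = 0.014), and 5 of 10 week 2 mice lay below all week 0 mice.

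Dbp, the output factor with the widest daily swing in many tissues, ranged from 3.67 over 4.65 to 5.24 at week 0 and from 5.84 over 7.08 to 7.51 at week 2. The groups did not overlap, and Dbp rose 4.93-fold (log2 difference 2.30, SE 0.28, adjusted p = 7.51e-05). Its relatives Tef (1.83-fold, adjusted p = 2.63e-06) and Hlf (1.44-fold, adjusted p = 0.00435) rose as well. Nfil3, a repressor at the same D-box, fell 1.32-fold (log2 difference -0.40, adjusted p = 0.0255). Nr1d2, which encodes REV-ERB beta, ranged from 9.71 over 10.03 to 10.2 at week 0 and from 10.82 over 11.05 to 11.16 at week 2. Its rise of 2.04-fold (log2 difference 1.03, SE 0.06) had the smallest adjusted p of the clock list, 7.49e-07. Rora rose 1.24-fold (adjusted p = 0.0324) but this probe set did not pass without week 0 mouse 1 or 3 or week 2 mouse 3, 4 or 10. Of the 5 Rora probe sets 3 were called higher, including ones with log2 differences of 0.778 (adjusted p = 0.000189) and 0.628 (adjusted p = 0.0126). The others, at -0.127 and -0.0164, were not called.

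Of the other members, Usp2, a ubiquitin protease with a strong daily rhythm, rose 1.82-fold (adjusted p = 5.23e-05), Herpud1 1.84-fold (adjusted p = 0.000391), Tsc22d3 1.72-fold (adjusted p = 0.00246), Wee1 1.55-fold (adjusted p = 0.00122), Bhlhe40 1.43-fold (adjusted p = 0.00133) and Ciart 1.30-fold (adjusted p = 0.00655). For Tsc22d3, 1 of its 3 probe sets was called, and another at a similar level (8.01 and 8.15) was not (adjusted p = 0.403). Per2, Tef, Hlf and Wee1 each had 1 of 2 probe sets called. Leo1 was 1.15-fold lower (adjusted p = 0.0462) and did not pass in 12 of the 17 fits that left out 1 mouse. Nfil3 did not pass without week 0 mouse 2, 5 or 6. Bhlhe41 (log2 difference -0.14, adjusted p = 0.0828), Gpam (0.09, adjusted p = 0.432) and Lonrf3 (0.16, adjusted p = 0.36) did not pass the test. In all, 11 of the 24 clock genes had groups that did not overlap (45.8%), against 4.36% of all genes.

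**Figure D2:**
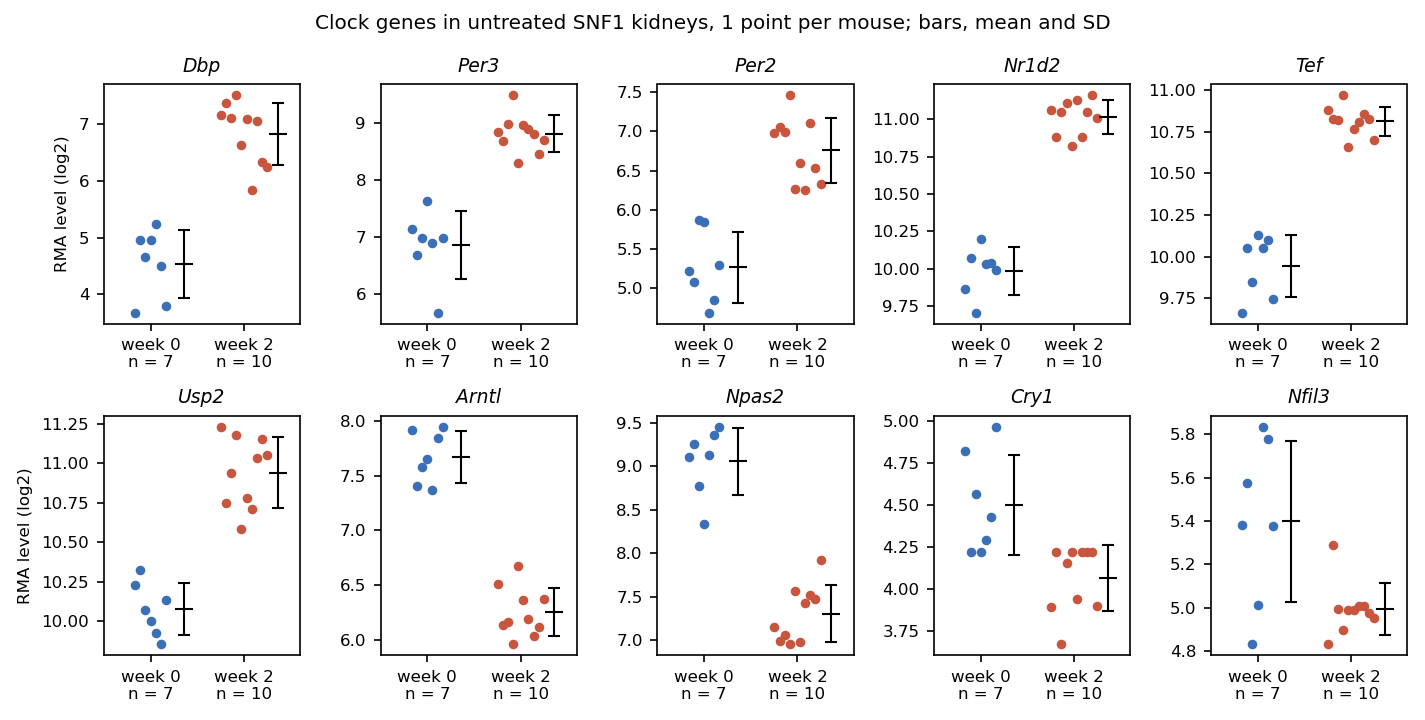
RMA level (log2, vertical axis) of 10 clock genes in each untreated mouse at week 0 (blue, n = 7) and week 2 (red, n = 10), with bars for the mean and SD. The vertical axes differ between panels and do not start at 0. Dbp, Per3, Per2, Nr1d2, Tef and Usp2 lie higher and Arntl and Npas2 lower at week 2 without overlap, while Cry1 and Nfil3 overlap.

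Immediate early genes held the largest change of all genes. Of 23 measured members, 10 rose (43.5%) and 1 fell (4.35%), against 19% and 8.15% of all genes. After quantile normalization 9 rose and 2 fell. Fos, a subunit of the AP-1 transcription factor, ranged from 4.24 over 5.56 to 6.55 at week 0 and from 7.64 over 9.22 to 10.23 at week 2. The groups did not overlap, and Fos rose 12.9-fold (log2 difference 3.69, SE 0.37, adjusted p = 2.4e-05). Egr1, a zinc finger factor of the same response, ranged from 8.11 over 9.19 to 10.23 at week 0 and from 10.07 over 11.54 to 12.23 at week 2. It rose 5.25-fold (log2 difference 2.39, SE 0.33, adjusted p = 0.000187), and 9 of 10 week 2 mice lay above every week 0 mouse.

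Ccn1, a secreted matrix protein induced by serum, rose 4.35-fold without overlap, from 6.85 over 7.57 to 8.27 at week 0 to 9.13 over 9.83 to 10.55 at week 2 (log2 difference 2.12, adjusted p = 4.03e-05). Gadd45g, a stress-induced growth arrest gene outside the list, rose 4.03-fold without overlap, from 7.01 over 7.47 to 7.88 at week 0 to 8.69 over 9.27 to 10.81 at week 2 (adjusted p = 0.000217). Dusp1, which encodes a phosphatase that ends MAP kinase signals, was at 10.97 over 11.36 to 11.66 at week 0 and at 11.81 over 12.29 to 13.18 at week 2. It rose 2.24-fold (adjusted p = 0.000549), and the groups did not overlap. Nr4a1 rose 2.83-fold (adjusted p = 0.00655), Btg2 2.21-fold (adjusted p = 0.00237), Ier3 1.90-fold (adjusted p = 0.00021) and Jun 1.63-fold (adjusted p = 0.00225). Nr4a2 was the member that fell, by 0.29 on the log2 scale (adjusted p = 0.0331). The number of lower members was 0 without week 0 mouse 1, 2, 3 or 4 or week 2 mouse 1, 2, 3 or 8. Fosb, Junb, Ier2, Egr2, Egr3, Atf3 and Myc did not pass the test.

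Glucocorticoid-responsive genes rose in 10 of 17 measured members (58.8%) and fell in 1 (5.88%), against 19% and 8.15% of all genes. After quantile normalization 8 rose and 2 fell. The median difference of the list was 0.50. Its mean level was 7.78 at week 0 (range 7.73 to 7.85) and 8.16 at week 2 (range 7.91 to 8.62), with no overlap. Such a separation of list means was not particular to the clock and glucocorticoid lists. It was also seen for immediate early genes (5.99 to 6.34 and 6.5 to 7.37) and hypoxia-induced genes (8.49 to 8.68 and 8.69 to 8.84). Outside stress responses it was seen for cytosolic ribosomal protein genes (11.9 to 12 and 12.1 to 12.3). Fatty acid oxidation genes (9.72 to 9.91 and 9.95 to 10.2) and intercalated cell genes (7.8 to 8.03 and 8.04 to 8.41) had it as well. Tsc22d3 (GILZ), Fkbp5 and Klf9 are classical direct targets of the glucocorticoid receptor. Fkbp5 rose 1.54-fold (adjusted p = 0.0077), Klf9 1.45-fold (adjusted p = 0.000247) and Tsc22d3 as given above, in 1 of its 3 probe sets. Sult1a1 rose 1.86-fold (adjusted p = 0.00958), Ddit4 1.58-fold (adjusted p = 0.0133) and Zbtb16 1.57-fold (adjusted p = 0.0464). Per1, Tsc22d3 and Dusp1 belong to more than 1 of these lists and are counted in each. The same holds for other genes of the lists here and below. Among them are Herpud1 (clock and unfolded protein response), Ddit4 (glucocorticoid and hypoxia), Aqp1, G6pc and Pvalb.

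Lists of other stress responses had shares of called genes near the 27.2% of all genes, with 28.6% for heat shock, 25% for the unfolded protein response, 30.8% for hypoxia and 29.4% for tubular injury. Of 14 heat shock and chaperone genes, 2 rose and 2 fell (0 and 2 after quantile normalization), among them Chordc1, which was 1.35-fold lower without overlap (adjusted p = 0.00119). Of 20 unfolded protein response genes 5 rose and 0 fell, a balance that turned to 2 and 4 after quantile normalization. Rbm3, an RNA-binding protein induced by cold, rose 2.33-fold, from 5.12 over 5.98 to 6.99 at week 0 to 6.34 over 7.17 to 7.88 at week 2, with overlap (adjusted p = 0.0033). Of 13 hypoxia-induced genes 3 rose and 1 fell (2 and 1 after quantile normalization). Adm, which encodes the vasodilator adrenomedullin, rose 1.76-fold without overlap (adjusted p = 0.000366). Of 17 tubular injury and acute phase genes 3 rose and 2 fell (2 and 2 after quantile normalization), and the injury markers Havcr1 and Lcn2 did not pass. The fibrinogen genes Fga (1.90-fold, adjusted p = 0.00435) and Fgg (1.87-fold, adjusted p = 0.00105) rose, and Sox9 was 1.49-fold lower (adjusted p = 0.00961).

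Outside the clock and the immediate early genes, Igf2, a fetal growth factor, gave one of the largest rises. It ranged from 6.29 over 6.75 to 7.38 at week 0 and from 8.31 over 9.11 to 9.30 at week 2. The groups did not overlap, and Igf2 rose 4.36-fold (log2 difference 2.12, SE 0.19, adjusted p = 9.42e-06). A second Igf2 probe set lay at the lowest value of the arrays, 2.21, and was not called. Of 16 growth hormone, IGF and insulin signalling genes, 5 passed (31.2%, against 27.2% of all genes). All 5 rose, and after quantile normalization the list had 2 higher and 2 lower members. The risen members were the binding protein genes Igfbp4 (1.43-fold, adjusted p = 0.000207), Igfbp1 (1.38-fold, adjusted p = 0.0487) and Igfbp3 (1.36-fold, adjusted p = 0.0092), and the receptor genes Igf1r (1.39-fold, adjusted p = 0.000389) and Insr (1.29-fold, adjusted p = 0.00215). Igfbp1 did not pass in 12 of the 17 fits that left out 1 mouse.

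Rnase4, a secreted ribonuclease, ranged from 5.60 over 6.55 to 6.88 at week 0 and from 7.53 over 7.92 to 8.83 at week 2. It rose 3.23-fold without overlap (log2 difference 1.69, adjusted p = 9.7e-05). Gfra1, the receptor of the kidney morphogen GDNF, ranged from 3.15 over 4.43 to 4.99 at week 0 and from 5.54 over 5.83 to 6.19 at week 2. It rose 3.13-fold without overlap (adjusted p = 0.000264), although 1 of its 3 probe sets was called. Mcm6, a subunit of the replicative helicase, rose 2.31-fold without overlap, from 5.03 over 5.17 to 5.82 at week 0 to 6.17 over 6.54 to 6.99 at week 2 (adjusted p = 3.02e-05). Of 27 measured genes of the cell cycle list, Mcm6 and Ube2c rose, Kif11, Mki67, Cenpe and Nusap1 fell, and 21 did not pass. These counts of 2 higher and 4 lower were the same after quantile normalization. The share called was 22.2%, against 27.2% of all genes. Kif11 was 1.61-fold lower (adjusted p = 0.002) and Mki67, the usual marker of dividing cells, 1.43-fold lower (adjusted p = 0.0275), though Mki67 did not pass without week 0 mouse 2 or mouse 3.

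Sfrp2, Pou3f2, Pou4f1, Elavl2 and Pabpc4l were among the 12 largest falls. Sfrp2, which encodes a secreted modulator of Wnt signals, ranged from 9.08 over 9.41 to 9.60 at week 0 and from 7.32 over 7.80 to 8.00 at week 2. The groups were far apart relative to their SDs of 0.163 and 0.245, and Sfrp2 fell 3.16-fold (log2 difference -1.66, SE 0.10, adjusted p = 7.49e-07). Pou3f2, a POU domain factor known from neurons, ranged from 5.90 over 6.18 to 6.87 at week 0 and from 3.57 over 4.29 to 4.98 at week 2. It fell 4.18-fold without overlap (log2 difference -2.06, SE 0.22, adjusted p = 3.07e-05), and 2 of its 3 probe sets were called lower. Pou4f1, another POU factor of neurons, ranged from 6.83 over 7.12 to 7.41 at week 0 and from 4.48 over 5.71 to 5.97 at week 2, a 3.19-fold fall without overlap (adjusted p = 0.000139). Elavl2, an RNA-binding protein of neurons, was 3.04-fold lower with overlap (adjusted p = 0.00442), and Pabpc4l, a poly(A)-binding protein relative, 3.09-fold lower without overlap (adjusted p = 3.64e-05).

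Gm3715, a predicted gene, ranged from 7.11 over 7.64 to 8.03 at week 0 and from 3.08 over 5.32 to 6.70 at week 2. It was 6.08-fold lower without overlap (log2 difference -2.60, SE 0.52, adjusted p = 0.00229), the largest fall of any named gene. The 5 lowest week 2 values were those of mice 1 to 5 (3.08 to 4.69), and mice 6 to 10 lay at 5.96 to 6.70. Speer4b, of a glutamate-rich protein family expressed in testis, fell 5.67-fold (adjusted p = 0.00194), with mice 1 to 5 at 2.94 to 4.52 and mice 6 to 10 at 4.85 to 6.32. Pou3f2 was at 3.57 to 4.03 in mice 1 to 5 and at 4.56 to 4.98 in mice 6 to 10. The same division of mice was seen in the control probe sets for repeats, and its part in these falls was not tested. Prl2c2, which encodes a proliferin of the prolactin family, was 4.45-fold lower (adjusted p = 0.00115), Gm4836 3.27-fold (adjusted p = 9.7e-05), Gm26611 3.01-fold (adjusted p = 3.38e-05) and 2610042L04Rik 3.47-fold (adjusted p = 0.000894). The probe sets of Speer4b, Prl2c2 and Gm4836 are of the kind that can bind several related transcripts, so their gene names are uncertain, and 4 week 2 mice were at the lowest array value for Gm4836.

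**Figure D3:**
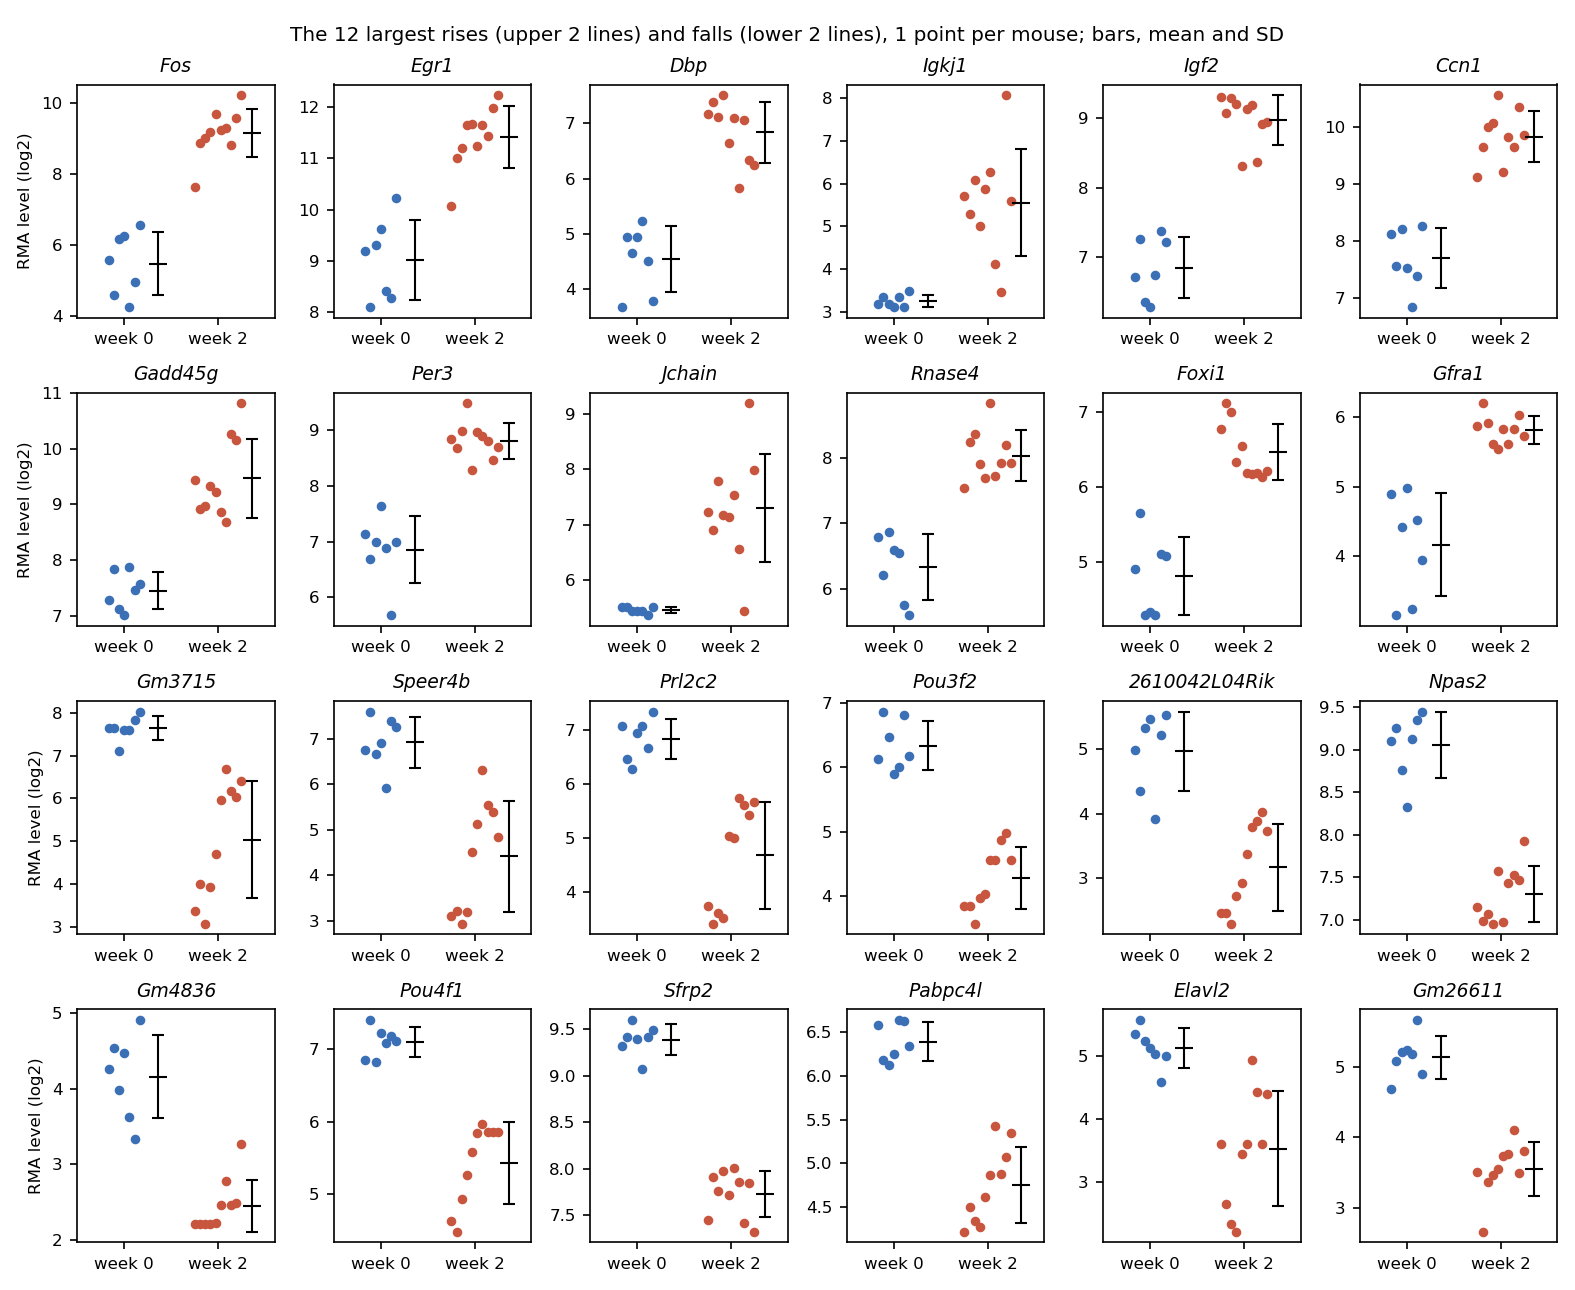
RMA level (log2, vertical axis) in each untreated mouse at week 0 (blue, n = 7) and week 2 (red, n = 10) for the 12 genes with the largest rise (upper panels) and the 12 with the largest fall (lower panels), with bars for the mean and SD. Points of a group run from mouse 1 on the left, and the axes differ between panels. Fos, Dbp and Igf2 are separated between the weeks, Igkj1 and Jchain are near a constant at week 0 and spread widely at week 2, and Gm3715 runs from 3.08 to 6.70 at week 2.

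Jchain and Igkj1, both of immunoglobulins, were among the 12 largest rises. Jchain, which joins IgM and IgA into polymers and marks antibody-secreting cells, ranged from 5.36 over 5.43 to 5.52 at week 0 and from 5.43 over 7.20 to 9.19 at week 2. The SD was 0.0598 at week 0 and 0.974 at week 2, and 9 of 10 week 2 mice lay above every week 0 mouse. Jchain rose 3.56-fold (log2 difference 1.83, SE 0.37, adjusted p = 0.00228). Igkj1, from the kappa light chain locus, ranged from 3.12 over 3.18 to 3.49 at week 0 and from 3.46 over 5.66 to 8.07 at week 2, a 4.91-fold rise (log2 difference 2.30, SE 0.47, adjusted p = 0.00274) with 9 of 10 mice above week 0. Mouse 9 was the highest for both genes and mouse 8 the lowest for both. The Igkj1 probe set can bind several immunoglobulin transcripts.

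Of 12 B cell and plasma cell genes 5 passed (41.7%, against 27.2% of all genes), 2 higher and 3 lower. Jchain and Xbp1 (1.30-fold, adjusted p = 0.0203) rose, and the B cell surface genes Cd79a (1.43-fold lower, adjusted p = 0.00263), Cr2 (1.27-fold lower, adjusted p = 0.0406) and Ms4a1 (1.21-fold lower, adjusted p = 0.02) fell. Of 20 macrophage and monocyte genes, Tyrobp rose (1.52-fold, adjusted p = 0.00276) and Cx3cr1 (1.40-fold lower, adjusted p = 0.00229) and Fcer1g (1.26-fold lower, adjusted p = 0.0357) fell. Of 12 neutrophil genes S100a9 was 1.58-fold lower (adjusted p = 0.0265), and of 15 T and NK cell genes Cd2 was 1.14-fold lower (adjusted p = 0.0396). Of 21 interferon-stimulated genes, Xaf1 rose (1.55-fold, adjusted p = 0.0132) and Oas3 fell (1.16-fold lower, adjusted p = 0.0276). Of 14 MHC genes, H2-T23 rose (1.64-fold, adjusted p = 0.00124). Oas3 did not pass without week 0 mouse 4 or mouse 6, Fcer1g in 7 and Cd2 in 9 of the 17 fits that left out 1 mouse. The remaining members of these lists did not pass. The shares called were 15% for macrophage, 8.33% for neutrophil, 6.67% for T and NK cell, 9.52% for interferon-stimulated and 7.14% for MHC genes. The mean level of the macrophage list was 4.65 and 4.69 in the 2 weeks and that of the interferon list 5.18 and 5.22. After quantile normalization the T and NK cell list had 3 higher and 0 lower members, the interferon list 2 and 4, the MHC list 1 and 2, the macrophage list 2 and 2, the neutrophil list 0 and 0 and the B cell list 1 and 2.

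In the proximal tubule, which reabsorbs most of the filtrate, genes of transport were among those that rose. Of 26 proximal tubule genes 12 rose (46.2%) and 1 fell (3.85%), against 19% and 8.15% of all genes. After quantile normalization 8 rose and 2 fell. Slc6a19, the main transporter of neutral amino acids, rose 1.89-fold, from 8.03 over 8.61 to 8.81 at week 0 to 9.29 over 9.45 to 9.69 at week 2 (adjusted p = 3.44e-05), without overlap. The proline transporter Slc6a20b rose 1.59-fold (adjusted p = 9.7e-05), the cystine transporter subunit Slc3a1 1.45-fold (adjusted p = 0.000213) and the water channel Aqp1 1.45-fold (adjusted p = 0.00045). G6pc, the last enzyme of gluconeogenesis, was the member that fell (1.41-fold lower, adjusted p = 0.00416).

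Cytosolic ribosomal protein genes had the highest share of risen members of the lists with 10 or more genes, 16 of 21 (76.2%), with 0 lower. Over all genes, 19% were higher and 8.15% lower, which also serves for the lists that follow. After quantile normalization 11 rose (52.4%) and 0 fell, and the clock list then had the higher share (54.2%). Rps14 rose 1.57-fold, from 10.32 over 10.8 to 11.1 at week 0 to 11.14 over 11.46 to 11.62 at week 2, without overlap (adjusted p = 0.000347). Of 25 oxidative phosphorylation genes 12 rose (48%) and 0 fell (5 and 2 after quantile normalization), led by Ndufb3 of complex I (1.44-fold, adjusted p = 0.000157). Of 23 genes of fatty acid oxidation and PPAR alpha, 10 rose (43.5%) and 0 fell (3 and 0), among them Vnn1 (1.73-fold, adjusted p = 0.000151) and Cpt1a, the entry enzyme of mitochondrial fatty acid oxidation (1.35-fold, adjusted p = 0.00221). Of 22 genes of amino acid breakdown 8 rose (36.4%), with 2 higher and 2 lower after quantile normalization.

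Of 20 cytochrome P450 genes 7 rose (35%) and 0 fell (5 and 0 after quantile normalization), against 19% higher and 8.15% lower over all genes. Cyp4b1, an androgen-responsive enzyme of mouse kidney, rose 2.2-fold without overlap, from 8.48 over 9.42 to 9.56 at week 0 to 10.13 over 10.35 to 10.69 at week 2 (adjusted p = 8.73e-05). Cyp27b1, which makes active vitamin D, rose 1.83-fold with overlap (adjusted p = 0.0339) and did not pass in 7 of the 17 fits without 1 mouse. Of 16 bile acid and organic anion transport genes 6 passed (37.5%, against 27.2% of all genes), and all 6 rose. After quantile normalization 2 rose and 1 fell, and without week 0 mouse 6 the main fit had 3 higher. Slc51a, a subunit of the basolateral steroid and bile acid carrier, rose 2.12-fold, from 6.25 over 6.39 to 6.69 at week 0 to 6.99 over 7.53 to 8.14 at week 2, without overlap (adjusted p = 6.32e-05). Of 16 cholesterol synthesis genes 1 rose (6.25%) and 0 fell, which turned to 0 and 3 after quantile normalization. Of 13 fatty acid synthesis genes 1 rose (7.69%) and 0 fell (1 and 1 after quantile normalization).

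In the distal nephron, Foxi1, the transcription factor that specifies intercalated cells, ranged from 4.30 over 4.91 to 5.65 at week 0 and from 6.13 over 6.27 to 7.11 at week 2. It rose 3.13-fold without overlap (log2 difference 1.65, SE 0.21, adjusted p = 0.000117). Mice 1 to 5 of week 2 lay at 6.33 to 7.11 and mice 6 to 10 at 6.13 to 6.21. Of 10 intercalated cell genes, 5 rose and 1 fell (1 and 1 after quantile normalization). The share called was 60%, against 27.2% of all genes. The ammonia channel Rhcg (1.35-fold, adjusted p = 0.0122) and the proton pump subunit Atp6v1b1 (1.32-fold, adjusted p = 0.0353) were among those that rose. The count of 5 rested on single mice. It was 3 without week 0 mouse 1, 5 or 6 or week 2 mouse 2 or 4, and 2 without week 0 mouse 3, 4 or 7 or week 2 mouse 1, 3, 5 or 8. The water channel Aqp3 rose 1.66-fold without overlap (adjusted p = 0.000581). The taurine transporter Slc6a6, which responds to osmotic load, rose 1.55-fold without overlap (adjusted p = 6.83e-05). Of 10 thick ascending limb genes, Kcnj1 was 1.15-fold lower (adjusted p = 0.0477) and the others did not pass (0 higher and 3 lower after quantile normalization). The share called was 10%. Without 1 mouse, Kcnj1 did not pass in 12 of 17 fits and Atp6v1b1 in 9.

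The lists of glomerulus, vessel and matrix genes had more lower than higher members. The shares called were 54.5% for podocyte, 21.4% for endothelial and 21.1% for matrix genes, against 27.2% of all genes. The shares that fell were 36.4%, 21.4% and 21.1% in the same order, against 8.15% of all genes. Of 11 podocyte genes 4 fell (36.4%) and 2 rose, with 8 and 0 after quantile normalization and 2 and 2 after median centring. Cdkn1c, a cyclin-dependent kinase inhibitor of mature podocytes, ranged from 6.87 over 7.04 to 7.31 at week 0 and from 6.21 over 6.54 to 6.83 at week 2, and was 1.48-fold lower without overlap (adjusted p = 0.000514). Of 14 endothelial genes 3 fell and 0 rose (5 and 0 after quantile normalization). On the log2 scale Eng fell by 0.31, Egfl7 by 0.28 and Kdr, a receptor of the vascular growth factor VEGF, by 0.22, and Kdr did not pass without week 0 mouse 3, 5 or 6. For Eng 1 of 2 and for Egfl7 1 of 3 probe sets was called. An uncalled probe set of each went the other way (0.115 and 0.0888). Of 19 collagen and matrix genes 4 fell and 0 rose (8 and 1 after quantile normalization), among them Tnc (1.66-fold lower, adjusted p = 0.0275), Col15a1 (1.62-fold, adjusted p = 0.0212) and Col18a1 (1.32-fold, adjusted p = 0.00229). Tnc did not pass without week 0 mouse 1 or mouse 2. The number of lower matrix genes was 2 without week 0 mouse 1 or mouse 2 and 7 without week 2 mouse 7.

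**Figure D4:**
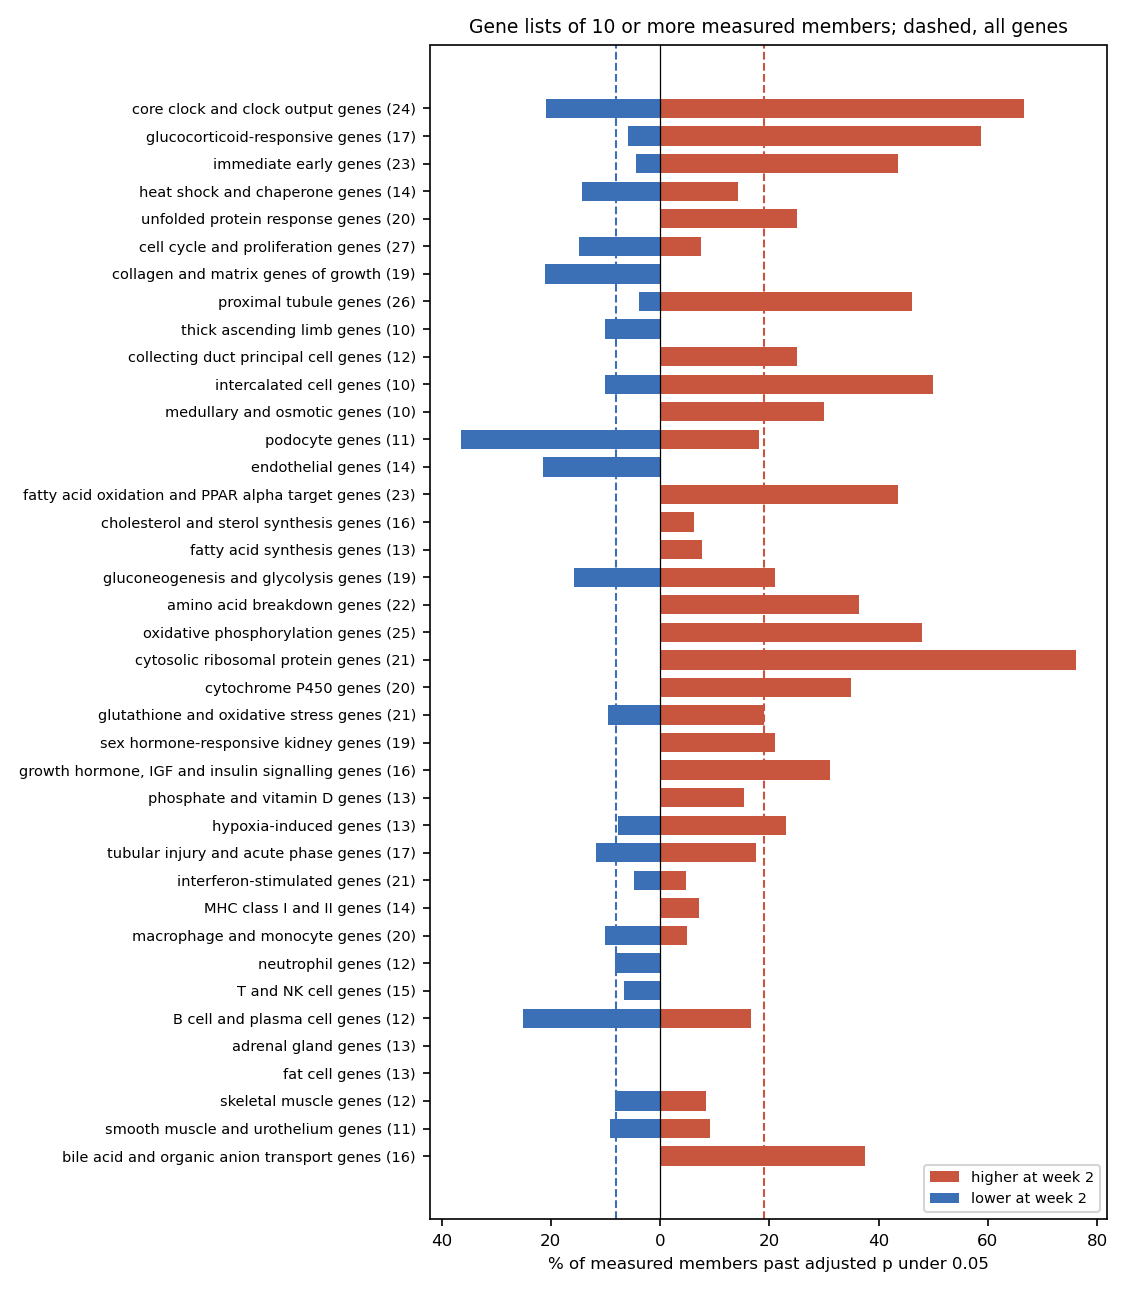
Percent of measured members of each gene list (number of members in brackets) that passed adjusted p under 0.05, lower at week 2 to the left (blue) and higher to the right (red), for lists of 10 or more measured genes. Dashed lines mark the share over all genes, 8.15% lower and 19% higher. Ribosomal protein genes (76.2%), clock genes (66.7%) and glucocorticoid-responsive genes (58.8%) have the longest red bars, and podocyte genes (36.4%) the longest blue bar.

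Genes of tissues that lie next to the kidney were examined because a dissected kidney can carry them. None of 13 adrenal gland genes passed limma's test, and 0 had an unadjusted p under 0.05. Their median difference was nevertheless 0.633, against 0.003 over all genes, and their mean level was 3.94 at week 0 and 4.64 at week 2. That level varied among mice, from 3.45 to 4.97 at week 0 and from 3.41 to 7.77 at week 2. Mice 10, 2 and 1 of week 2 were at 7.77, 6.97 and 5.83. The part of this tissue in the results was not tested beyond the covariate below. Of 13 fat cell genes, 0 passed and 4 had an unadjusted p under 0.05, and their mean level was 6.99 (range 5.68 to 7.44) at week 0 and 7.19 (range 5.93 to 8.25) at week 2. With the adrenal level as a covariate, an alternative chosen after seeing the data, 16 clock genes rose and 5 fell. Ttr, a plasma carrier protein made in liver and choroid plexus, rose 2.84-fold with overlap (adjusted p = 0.000292).

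The levels of the other untreated groups placed these changes in the time course, as a description with no test because the same week 0 and week 2 mice are shared. Mean Arntl levels were 7.67, 6.25, 5.7, 5.44, 6.06 and 5.56 at weeks 0, 2, 4, 8, 12 and 14. Mean Dbp levels were 4.54, 6.84, 7.24, 7, 5.68 and 7.14 at the same weeks. Week 0 was the extreme group for both genes. It was also the lowest for Fos, with means of 5.47, 9.16, 8.57, 8.48, 8.46 and 9.52, and for Igf2, with 6.85, 8.98, 9.19, 9.95, 9.8 and 10.2. Jchain means were 5.46, 7.29, 7.54, 8.67, 9.91 and 10.8, higher at each later week. Sfrp2 (9.39, 7.72, 7.59, 8.37, 7.99 and 8.09) stayed below its week 0 mean, whereas Gm3715 (7.64, 5.03, 4.78, 6.88, 7.53 and 5.9) was back near it at week 12. In the 9 pristane-treated mice of week 2 the means were 6.01 for Arntl, 7.11 for Dbp, 8.57 for Fos, 8.93 for Igf2, 7.65 for Jchain and 7.77 for Sfrp2. Some control probe sets also had week 0 as the extreme untreated group. Over the 6 weeks the bacterial controls averaged 11.8, 11.3, 11.1, 11.2, 11.6 and 11.1. The B1 and B2 repeats averaged 11.6, 10.9, 10.8, 11.1, 11.3 and 10.9, and 3′ beta-actin 12, 12.4, 12.4, 12.4, 12.4 and 12.3. For 18S rRNA (7.95, 8.74, 8.72, 8.28, 7.93 and 7.32) week 0 was not the extreme.

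**Figure D5:**
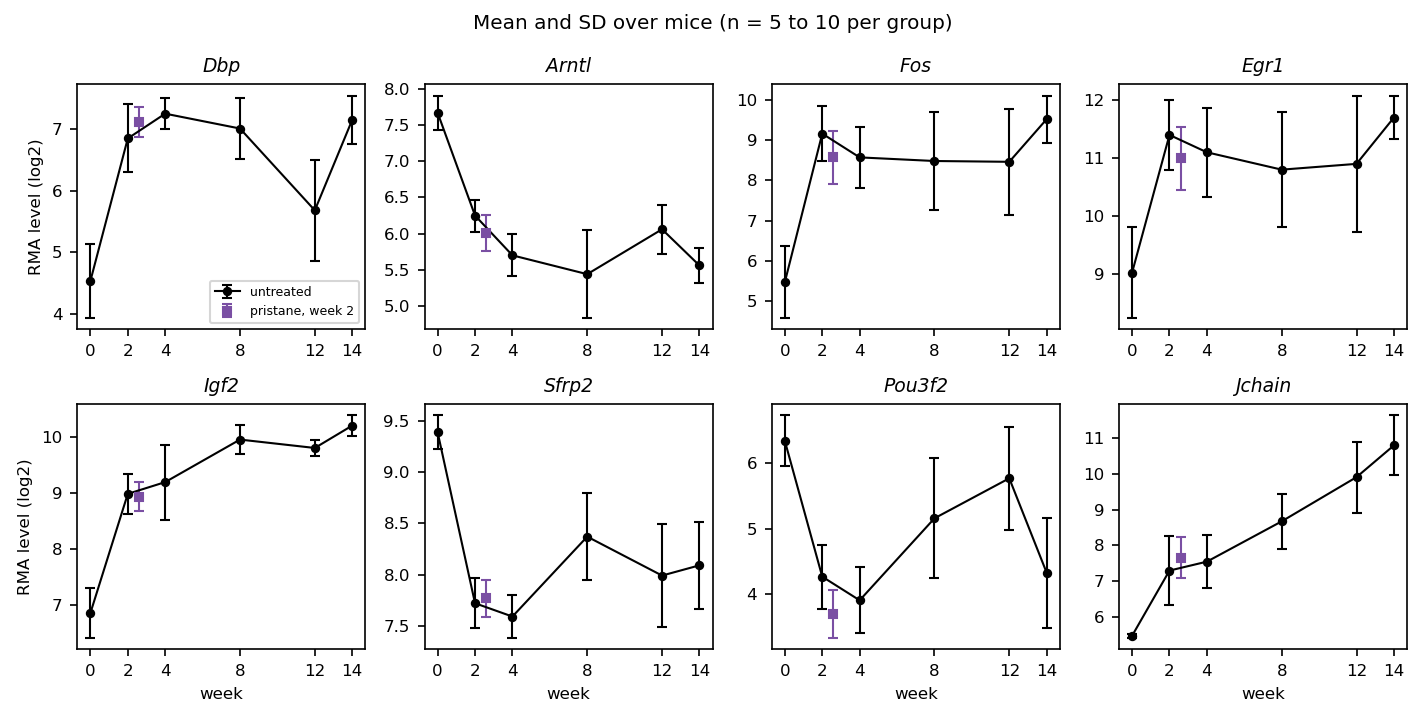
Mean RMA level (log2, vertical axis) against week (horizontal axis) in untreated mice (black circles, n = 5 to 10 mice a group), with SD bars, for 8 genes. The purple square is the group of 9 pristane-treated mice of week 2, drawn to the right of it for legibility. Dbp, Fos, Egr1, Igf2 and Jchain are lowest at week 0, and Arntl, Sfrp2 and Pou3f2 are highest there.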

How the data were processed

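Kidney RNA of 17 untreated SNF1 mice was analysed. Per the labels, total RNA was isolated with Trizol, amplified and labelled with the NuGEN Ovation Biotin system, and the authors normalized the arrays by RMA in Partek. The deposited values are on the log2 scale. From them, 104 control probe sets were left out and 45037 were tested for week 2 minus week 0 with limma 3.58.1 (lmFit and eBayes) in R 4.3.3, with Benjamini-Hochberg adjustment over all of them. GEO's platform annotation gave 1 gene symbol for 28898 probe sets, several for 551 and none for 15588, which are unnamed here. A gene was represented by its probe set of highest mean over all 95 arrays. Named were the 12 genes with the largest rise and the 12 with the largest fall among those at adjusted p under 0.05, all measured clock genes, and up to 3 members of each other list with the largest change. Further called members are also given with their values, chosen after these were seen. The gene lists and the comparison were chosen with earlier results of these data known. The lowest value of the arrays was 2.21, and 3845 probe sets were at it on all 17. Alternatives were median centring, quantile normalization, filters on low values, fits with more groups, other variance models, a replicate block, a stricter threshold, averaged probe sets and leaving out each mouse. The script was tested on simulated data. The number of arrays limits the precision, and 0 arrays held identical values (highest correlation 0.997). Promoters were RefSeq windows on GRCm38.p6, and those of Bhlhe40, Per2 and Wee1 were not matched.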

Additional observations from a re-analysis of the deposited data

Results flagged for a closer look

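For the 138 named genes, single mice far from the others of their group were looked for in each of the 2 groups, which gave 25 such values in 276 sets of values. Chance alone gives about 1 in 20. Values are RMA levels (log2), each followed by that of the nearest other mouse. At week 0 the lowest mouse stood apart for Bhlhe40 in mouse 5 (8.42, next 8.91), Lonrf3 in mouse 5 (4.85, next 5.44), Slc12a3 in mouse 6 (10.1, next 10.3), Eng in mouse 7 (6.83, next 7.11), Mme in mouse 5 (4.08, next 4.75), Cyp51 in mouse 5 (11.1, next 11.4) and Xaf1 in mouse 3 (4.67, next 5.45). The highest mouse of week 0 stood apart for Slc5a3 in mouse 2 (4.49, next 4.19), Fcer1g in mouse 5 (6.52, next 6.09) and S100a9 in mouse 5 (5.92, next 4.64). Among them, mouse 5 accounted for Bhlhe40, Lonrf3, Mme, Cyp51, Fcer1g and S100a9. At week 2 the lowest mouse stood apart for Gm26611 in mouse 2 (2.66, next 3.37), Bhlhe41 in mouse 4 (2.28, next 2.38), Sult1a1 in mouse 7 (7.8, next 8.81), Atf4 in mouse 7 (8.57, next 8.98), Slc6a6 in mouse 7 (11.3, next 11.5), Cpt1a in mouse 5 (9.65, next 9.84), Uqcrc1 in mouse 9 (9.68, next 9.97), Cx3cr1 in mouse 2 (3.32, next 3.62), Cd79a in mouse 2 (3.31, next 3.73) and Tnni2 in mouse 5 (4.08, next 4.39). The highest mouse of week 2 stood apart for Gm4836 in mouse 10 (3.27, next 2.78), Nfil3 in mouse 2 (5.29, next 5.01), Hsp90b1 in mouse 3 (11.3, next 10.8), Mme in mouse 5 (5.61, next 5.27) and Ctrb1 in mouse 7 (2.65, next 2.6). The causes were not tested. Of these genes, Bhlhe41 and Lonrf3 did not pass the test between the weeks, and the others did.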

How the results depend on the processing

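Compared with 78 genes over 2-fold higher, 51 over 2-fold lower, 3251 higher and 1393 lower at week 2, quantile normalization of the 17 arrays gave 44 over 2-fold higher, 2016 higher and 2167 lower. A single fit of all 95 arrays gave 2560 lower, and an adjusted p under 0.01 gave 1812 higher, 557 lower and 2 lower clock genes. Averaging all probe sets of a gene gave 25 genes over 2-fold lower. Leaving out 1 mouse at a time gave 67 to 94 genes over 2-fold higher, 45 to 56 over 2-fold lower, 2798 to 3195 higher and 1105 to 1470 lower, and 15 to 16 higher and 3 to 5 lower clock genes. Mice of the 2 weeks shared 7 replicate numbers, but same-numbered mice did not deviate together (correlations -0.132 to 0.0595), so the numbers do not pair the mice. With a replicate block over them, 1702 genes were higher, 432 lower and 2 clock genes lower. The difference of Gpam, which did not pass, turned to -0.0712 after quantile normalization and to -0.00335 after averaging probe sets, and that of Slc20a2 to -0.0992 after averaging probe sets. Of the 138 named genes, 102 kept their call and direction after quantile normalization, 131 after median centring and 82 with the replicate block. The adrenal covariate, chosen after seeing the data, gave 80, 48, 2989 and 1127 genes in the order above. The cause of these shifts was not tested. Values at the lowest array level of 2.21 give only a bound, and repeated low values limit what can be said of Per1, Jchain and Igkj1 at week 0.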

Other observations

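Further gene lists had shares of called genes that can be set against the 27.2% of all genes: 28.6% for distal convoluted tubule, 25% for principal cell, 30% for medullary and osmotic, 36.8% for gluconeogenesis and glycolysis, 28.6% for glutathione and oxidative stress and 33.3% for pancreas, spleen and liver genes. Skeletal muscle genes had 16.7% and smooth muscle and urothelium genes 18.2%. Of 7 distal convoluted tubule genes, the salt transporter Slc12a3 (1.27-fold, adjusted p = 0.00357) and Pvalb (1.30-fold, adjusted p = 0.00723) rose, a balance that turned to 0 higher and 2 lower after quantile normalization. Of 12 principal cell genes, 3 rose (Aqp3, Aqp4 and the vasopressin receptor gene Avpr2) and 0 fell, with 1 and 2 after quantile normalization. Of 10 medullary and osmotic genes, Slc6a6, Aqp1 and Slc5a3 rose and 0 fell under either scaling. Of 19 gluconeogenesis and glycolysis genes 4 rose and 3 fell (2 and 3 after quantile normalization), with Pcx 1.41-fold higher (adjusted p = 0.00475) and Pfkp 1.29-fold lower (adjusted p = 0.0035). Of 21 glutathione and oxidative stress genes 4 rose and 2 fell (2 and 3 after quantile normalization), with Gclm, a subunit of the enzyme that limits glutathione synthesis, 1.48-fold higher (adjusted p = 0.00259). Of 9 pancreas, spleen and liver genes, Ttr and Cela1 rose and Ctrb1 fell (1 and 1 after quantile normalization). Of 12 skeletal muscle genes 1 rose and 1 fell under either scaling, and of 11 smooth muscle and urothelium genes Krt7 rose (1.33-fold, adjusted p = 0.0055) and Myh11 fell (1.43-fold lower, adjusted p = 0.00568), which turned to 0 higher and 3 lower after quantile normalization. Of 5 lipocalin and urinary protein genes 0 passed limma's test and 0 had an unadjusted p under 0.05.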
